A study of Homo sapiens with 12 samples.

Results

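Cholesterol and fatty acid synthesis genes were followed in human mammary epithelial cells after knockdown of EP300, a histone and protein acetyltransferase that acts as a transcriptional coactivator. The set held 37 genes named for the sterol and fatty acid synthesis programme, and each was found in the count table by the symbol of its RefSeq accession, among 29094 accessions in all. The genes covered 7 mevalonate and isoprenoid enzymes, 11 sterol enzymes, 6 regulators and sterol carriers, 4 enzymes on the way to palmitate, 6 desaturases and elongases, and 3 genes of acyl-CoA and lipid assembly. After a filter on low counts, 36 of the 37 were tested among 13424 genes. TM7SF2, a sterol reductase, was not tested because its larger accession held 11 counts over the 12 libraries.

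All libraries came from MCF10AT, a mammary epithelial line transformed by an activated HRAS. The groups were EP300 KD2 and EP300 KD1, each stably expressing a different EP300 shRNA from a lentivirus, and NS2 and NS1, which expressed non-silencing hairpins, with 3 libraries each. Every group went through the same transduction and puromycin selection at 1 µg/ml for 3 days. The medium held insulin at 10 µg/ml, hydrocortisone at 100 µg/ml, EGF at 20 ng/ml, cholera toxin at 1 ng/ml and donor horse serum at 5%. Serum lipids and added insulin were thus present in every group. Poly(A) RNA was sequenced with a strand-marking kit, and the comparisons were EP300 KD2 against NS2 and EP300 KD1 against NS1, each hairpin being set against the control of its own number. The labels do not say whether a line was a clone or a pool, nor whether replicates were separate cultures, so the p-values measure the spread between libraries, which may be technical. In bulk RNA, fewer cells of a type and less RNA per cell cannot be told apart.

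Cells make cholesterol from acetyl-CoA through mevalonate, farnesyl diphosphate, squalene and lanosterol, and make fatty acids from the same precursor through malonyl-CoA and palmitate. Much of both pathways is transcribed under the sterol regulatory element-binding proteins, SREBP1 (gene SREBF1) and SREBP2 (gene SREBF2). These are held in the endoplasmic reticulum by SCAP and the INSIG proteins when sterols are plentiful, and are cleaved in the Golgi when sterols are scarce. NF-Y, which binds CCAAT boxes, and Sp1, which binds GC boxes, are known to work beside SREBP at these promoters.

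The promoter stretches of 5 genes show the letters these factors are known to bind, and they were chosen to span the responses described further on: HMGCS1 and INSIG1 were higher with both hairpins, MSMO1 was higher with EP300 KD1, SCD went opposite ways, and SREBF2 is itself a regulator. Each runs 5′ to 3′ on the gene's strand, starts 250 bases before the RefSeq gene start (GRCh38.p14) and stops before the first annotated exon base. Capitals mark CCAAT or TCACNCCAC, a core of the sterol regulatory element, on either strand, so ATTGG is a CCAAT on the other strand. The stretches lie at chr5:43313513-43313662 on the minus strand (HMGCS1), and on the plus strand at chr7:155297628-155297775 (INSIG1), chr4:165327419-165327622 (MSMO1), chr10:100346983-100347123 (SCD) and chr22:41832855-41833078 (SREBF2).
HMGCS1: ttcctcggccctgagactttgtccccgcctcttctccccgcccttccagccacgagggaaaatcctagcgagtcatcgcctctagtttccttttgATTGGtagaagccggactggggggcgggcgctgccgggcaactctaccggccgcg
INSIG1: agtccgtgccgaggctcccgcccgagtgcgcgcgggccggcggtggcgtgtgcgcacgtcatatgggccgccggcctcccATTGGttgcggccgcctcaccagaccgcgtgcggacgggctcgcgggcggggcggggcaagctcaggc
MSMO1: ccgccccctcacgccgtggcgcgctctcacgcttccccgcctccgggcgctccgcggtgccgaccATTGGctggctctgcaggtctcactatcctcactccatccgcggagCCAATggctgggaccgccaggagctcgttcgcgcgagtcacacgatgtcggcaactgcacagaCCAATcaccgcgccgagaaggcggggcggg
SCD: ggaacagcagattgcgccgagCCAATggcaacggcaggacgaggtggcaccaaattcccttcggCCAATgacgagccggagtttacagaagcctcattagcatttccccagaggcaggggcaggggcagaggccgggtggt
SREBF2: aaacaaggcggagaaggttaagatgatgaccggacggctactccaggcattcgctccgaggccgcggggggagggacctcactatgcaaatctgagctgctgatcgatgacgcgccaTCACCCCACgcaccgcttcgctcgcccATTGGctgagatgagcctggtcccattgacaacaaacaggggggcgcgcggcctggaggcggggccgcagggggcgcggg

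These stretches hold 1 CCAAT box in HMGCS1, 155 bases before the start, 1 in INSIG1, 3 in MSMO1, 2 in SCD and 1 in SREBF2, and the SREBF2 stretch alone of the 5 holds the sterol regulatory core, 133 bases before the start. Promoter windows were matched for 33 of the 37 genes, as 50 windows of 250 bases since some genes have several starts. FASN, ACAT2, SQLE and FDFT1 had no window. CCAAT was present in 28 of these 50 windows (56.0%), against 32.0% of all 35114 windows in the table, and in at least 1 window of 24 genes. The GC box GGGCGG was present in 41 windows (82.0%), against 42.6% of all windows. TCACNCCAC was present in 2 windows (4.0%), of SREBF2 and of an inner start of ACSL1, against 0.883% of all windows, and the E-box CACGTG was present in 5 (10.0%), against 6.35%. Both strands were searched for each motif, matches of different motifs were counted separately where they overlapped, and a match describes letters only.

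EP300 itself was lower with both hairpins. Levels are given as CPM, the counts scaled to library size by the trimmed mean of M-values (TMM). EP300 averaged 95.8 ± 3.87 CPM in EP300 KD2 and 174 ± 8.14 CPM in NS2 (SD, n = 3 each), and 107 ± 0.884 CPM in EP300 KD1 and 172 ± 5.11 CPM in NS1. The log2 fold changes were -0.86 ± 0.04 for EP300 KD2 (SE, adjusted p = 1.1e-13) and -0.68 ± 0.03 for EP300 KD1 (adjusted p = 2.6e-12). The test was edgeR's quasi-likelihood test with Benjamini-Hochberg adjustment over all genes tested, and it is behind every adjusted p here unless another tool is named. Library totals ran between 31396653 and 45606950 counts. The summed level of 10 mammary epithelial markers was lower in both knockdown lines, at 4593 to 4726 CPM in EP300 KD2 against 8368 to 8500 CPM in NS2, and 5394 to 5592 CPM in EP300 KD1 against 7208 to 7478 CPM in NS1. Of these 10, 9 fell with EP300 KD2, while with EP300 KD1 8 fell and 2 rose. The 2 were LAMB3, at 1065 ± 90.4 CPM in EP300 KD1 and 573 ± 25.8 CPM in NS1 (log2 change 0.90, adjusted p = 1.2e-12), and KRT8, at 3.32 CPM in EP300 KD1 and 2.2 CPM in NS1 (log2 change 0.59, adjusted p = 0.00046). The KRT8 record that was read is a non-coding transcript with 1090 counts over the 12 libraries, and it may hold only part of the gene's counts. KRT14, a basal keratin, averaged under 1 CPM. The sum of 8 adipocyte markers was 38.1 to 39.8 CPM in EP300 KD2 against 60.5 to 62.3 CPM in NS2, and 50.8 to 54.4 CPM in EP300 KD1 against 62.3 to 63.9 CPM in NS1. Most of that sum is PPARG, which averaged 37.2 and 56.6 CPM in EP300 KD2 and NS2 and 49 and 56.3 CPM in EP300 KD1 and NS1, with ADIPOQ, LEP and CIDEA at 0 counts in every library. CIDEC, another of the 8, rose with EP300 KD1, at 2.27 ± 0.0848 CPM against 0.711 ± 0.0304 CPM in NS1 (log2 change 1.67, adjusted p = 1.4e-08). Hepatocyte markers summed to 15.7 to 20.1 CPM in EP300 KD2 against 13.6 to 17.5 CPM in NS2, and 56.7 to 57.9 CPM in EP300 KD1 against 17.8 to 22.6 CPM in NS1. SERPINA1 made up most of that sum, at 56.6 CPM in EP300 KD1 and 13.7 CPM in NS1. Of the 7 genes, 5 averaged under 1 CPM and 2 were tested, of which 1 rose and 1 fell with each hairpin. The 1 that fell was FGB, at 0.37 CPM in EP300 KD2 and 2.99 CPM in NS2, and 0.325 CPM in EP300 KD1 and 6.93 CPM in NS1. Fibroblast markers summed to 25.9 to 28.4 CPM in EP300 KD2 against 27.9 to 30.2 CPM in NS2. Their sum was 67.6 to 71.2 CPM in EP300 KD1 against 46.5 to 48.4 CPM in NS1. COL1A2, COL3A1 and LUM were at 0. DCN averaged 10.9 CPM in EP300 KD2 and 4.6 CPM in NS2, and 43.3 CPM in EP300 KD1 and 7.31 CPM in NS1. FBLN1 went the other way, at 5.76 CPM in EP300 KD2 and 15.4 CPM in NS2, and 7.84 CPM in EP300 KD1 and 30.3 CPM in NS1. Of the 4 tested, 2 rose and 1 fell with EP300 KD2, and 3 rose and 1 fell with EP300 KD1. Leukocyte markers, mostly CD14, summed to 15.6 to 16.3 CPM in EP300 KD2 against 46.4 to 51.2 CPM in NS2, and 29.3 to 30.8 CPM in EP300 KD1 against 41.2 to 50.1 CPM in NS1. Neural-type markers, nearly all TUBB3, summed to 113 to 121 CPM in EP300 KD2 against 40.3 to 41.5 CPM in NS2, and 98.8 to 113 CPM in EP300 KD1 against 49.3 to 55.8 CPM in NS1, with STMN2, INA and PHOX2A at 0. The part of these lists in the results was not tested.

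The synthesis genes did not move as a block. With EP300 KD2, 9 of 36 were higher and 16 lower at an adjusted p under 0.05, which is 69.4% called against 57.8% of all genes tested. With EP300 KD1, 17 were higher and 11 lower, which is 77.8% called against 64.9% of all genes tested. Split by direction, the shares for EP300 KD2 were 25.0% higher (27.9% of all genes) and 44.4% lower (29.9%), and for EP300 KD1 47.2% higher (32.6%) and 30.6% lower (32.3%). The median log2 change was -0.06 with EP300 KD2 and 0.12 with EP300 KD1, against -0.00 and -0.01 over all genes tested. The split with EP300 KD2 depended on the scaling. Upper-quartile factors gave 14 higher and 14 lower genes, and 58.0% of the calls over all genes were then higher. Unadjusted library totals gave 14 higher and 12 lower genes, and that share was 61.3%, against 48.2% with TMM. Under both scalings ACAT2, CYP51A1, MSMO1, FADS1 and ELOVL6 joined the higher genes, while FDFT1 and FASN left the lower ones, as did SCAP and SC5D under library totals.

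**Figure D1:**
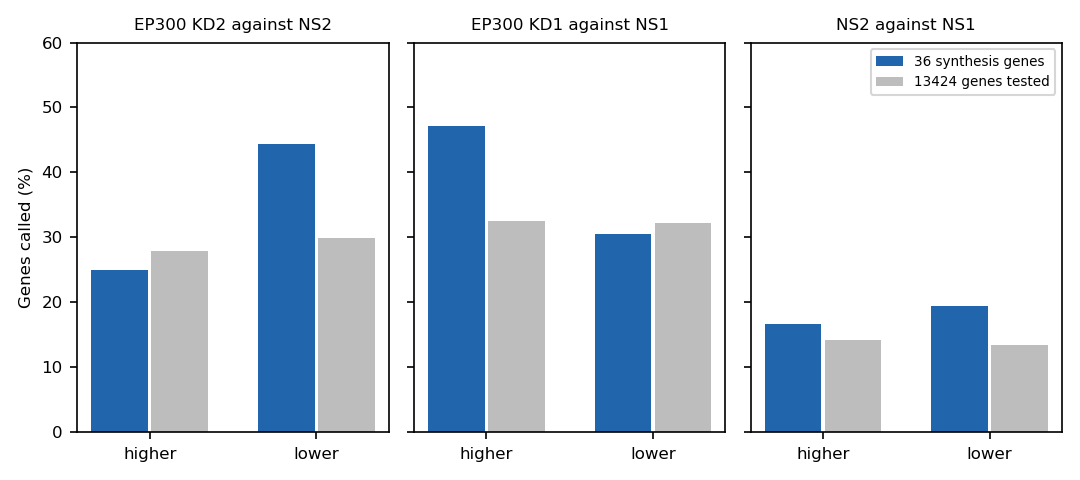
Percentage of genes called higher or lower (adjusted p under 0.05, vertical axis in percent) in EP300 KD2 against NS2, EP300 KD1 against NS1 and NS2 against NS1, for 36 synthesis genes (blue) and 13424 genes tested (grey). The blue bar for lower genes stands at 44.4% with EP300 KD2 against 29.9% in grey, and the blue bar for higher genes at 47.2% with EP300 KD1 against 32.6% in grey.

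Most changes were small. At least 1.5-fold, 2 genes were higher and 4 lower with EP300 KD2 (6.22% and 9.45% of all genes tested), and 3 were higher and 1 lower with EP300 KD1 (11.1% and 8.63%). The libraries of the groups did not overlap for 26 genes with EP300 KD2 and for 27 with EP300 KD1, against 63.5% and 67.7% of all genes tested. The 2 control lines also differed. In NS2 against NS1, 13 of the 36 genes passed the test, 6 higher and 7 lower, which is 36.1% called against 27.5% of all genes tested. By direction this was 16.7% higher (14.2% of all genes) and 19.4% lower (13.4%). At least 1.5-fold, 0 were higher and 1, SCD5, was lower (0.477% and 2.76% of all genes), and the libraries of NS2 and NS1 did not overlap for 16 genes (40.3% of all genes).

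Across both hairpins, 7 genes rose together and 8 fell together, which is 19.4% and 22.2% of those tested, against 15.3% and 17.3% of all genes tested. The number that rose together was 13 with upper-quartile factors, 12 with library totals alone and 11 with no filter on low counts. The 7 that rose with TMM were HMGCS1, IDI1, SQLE, EBP, INSIG1, ACLY and SCD5. The 8 that fell were SREBF1, SCAP, MVK, FDFT1, ELOVL5, ACSL1, ACSL3 and LPIN1. A further 4 genes, ACSS2, SCD, INSIG2 and STARD4, fell with EP300 KD2 and rose with EP300 KD1 (11.1%, against 11.2% of all genes tested), and 15 passed with 1 hairpin only. For genes passing with 1 hairpin only, the share over all genes tested was not counted. The difference between the hairpins, taken as the log2 change with EP300 KD2 minus that with EP300 KD1, was itself tested. It passed for 23 of the 36 genes, 7 positive and 16 negative (63.9% called, against 50.8% of all genes tested). Over all genes, 21.6% had a positive and 29.2% a negative difference. At least 1.5-fold, 1 was positive and 5 negative, against 4.99% and 8.89% of all genes. All 4 of the opposite genes passed this test, which their calls in opposite directions had all but fixed in advance. Of the 15, 9 passed it, but how often other genes of either class passed it was not counted.

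**Figure D2:**
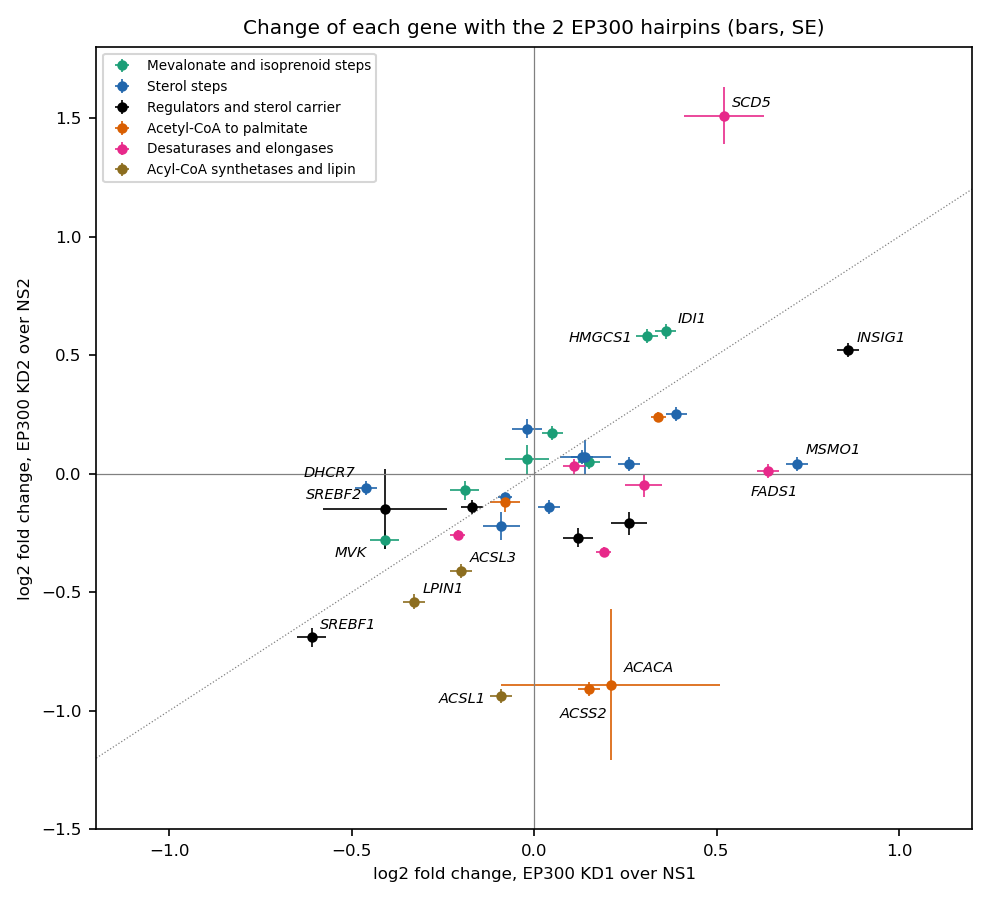
Log2 fold change of the 36 tested genes with EP300 KD1 over NS1 (horizontal) and with EP300 KD2 over NS2 (vertical), coloured by role, with bars for the SE and a dotted line of equal change. SREBF1 lies near the line at -0.69 with EP300 KD2 and -0.61 with EP300 KD1, while ACSL1, ACSS2 and ACACA lie low on the vertical axis and MSMO1 and FADS1 lie to the right near 0 on it.

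Among the regulators, SREBF1 fell with both hairpins, INSIG1 rose with both, and INSIG2 went opposite ways. SREBF1, which encodes the SREBP that chiefly drives fatty acid genes, had 307, 312 and 284 CPM in EP300 KD2 against 489, 474 and 492 CPM in NS2, a log2 change of -0.69 ± 0.04 (adjusted p = 1.2e-11). It had 322, 333 and 306 CPM in EP300 KD1 against 508, 462 and 494 CPM in NS1, a log2 change of -0.61 ± 0.04 (adjusted p = 5.7e-11). Every knockdown library lay under every control library, and the hairpins differed by -0.08 ± 0.05 in log2 change (adjusted p = 0.23).

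INSIG1, which retains the SCAP-SREBP complex in the endoplasmic reticulum and is itself an SREBP target, had 189, 179 and 193 CPM in EP300 KD2 against 136, 126 and 129 CPM in NS2. It had 235, 247 and 245 CPM in EP300 KD1 against 130, 135 and 136 CPM in NS1. The log2 changes were 0.52 ± 0.03 (adjusted p = 9.9e-11) and 0.86 ± 0.03 (adjusted p = 3.1e-14), both without overlap, and they differed by -0.34 ± 0.05 (adjusted p = 6.8e-06). INSIG2, a related retention protein, had 16.1, 14.5 and 15.7 CPM in EP300 KD2 against 17.8, 17.6 and 18 CPM in NS2, and 20.4, 21 and 21 CPM in EP300 KD1 against 17.2, 17.3 and 17.7 CPM in NS1. Its libraries were lowest in EP300 KD2 and highest in EP300 KD1, with log2 changes of -0.21 ± 0.05 (adjusted p = 0.0015) and 0.26 ± 0.05 (adjusted p = 0.00011).

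SCAP, the sterol sensor that escorts SREBP to the Golgi, had 87.8, 85.9 and 86.8 CPM in EP300 KD2 against 96.8, 93.6 and 96.3 CPM in NS2, and 89.3, 96.5 and 87.6 CPM in EP300 KD1 against 105, 98.3 and 104 CPM in NS1. The knockdown libraries were the lower in each pair without overlap, by -0.14 ± 0.03 (adjusted p = 0.0023) and -0.17 ± 0.03 (adjusted p = 0.0003). With library totals alone the EP300 KD2 change was -0.07 (adjusted p = 0.10). STARD4, a cytosolic carrier of cholesterol, fell by 0.27 on the log2 scale with EP300 KD2 (adjusted p = 5.9e-06) and rose by 0.12 with EP300 KD1 (adjusted p = 0.0068).

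SREBF2, which encodes the SREBP that chiefly drives sterol genes, could be read only in part. It had 2 accessions, and the larger of them, a non-coding transcript record, held only 664 counts over the 12 libraries. How much of the gene's signal the counting left out of both was not tested. The larger accession held 1.86, 1.26 and 1.23 CPM in EP300 KD2 against 1.49, 1.78 and 1.63 CPM in NS2. It held 1.35, 1.52 and 1.22 CPM in EP300 KD1 against 1.63, 1.94 and 1.88 CPM in NS1, without overlap, whereas the EP300 KD2 and NS2 libraries overlapped. The log2 changes were -0.15 ± 0.17 (adjusted p = 0.46) and -0.41 ± 0.17 (adjusted p = 0.037). The EP300 KD1 call was lost under DESeq2 (adjusted p = 0.11) and with both controls pooled (-0.34, adjusted p = 0.066). It was also lost without EP300 KD1 replicate 1 (-0.41, adjusted p = 0.077) or replicate 3 (-0.34, adjusted p = 0.13). The same held without NS1 replicate 2 (-0.37, adjusted p = 0.10) or replicate 3 (-0.39, adjusted p = 0.099). These values do not measure the gene's whole output.

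In the mevalonate pathway HMGCS1 and IDI1 rose with both hairpins and MVK fell with both. HMGCS1, which makes HMG-CoA from acetoacetyl-CoA and acetyl-CoA, had 377, 357 and 387 CPM in EP300 KD2 against 260, 243 and 249 CPM in NS2, and 353, 382 and 364 CPM in EP300 KD1 against 287, 302 and 297 CPM in NS1. All 6 knockdown libraries lay above all 6 control libraries, with log2 changes of 0.58 ± 0.03 (adjusted p = 3.4e-11) and 0.31 ± 0.03 (adjusted p = 1.7e-07). NS2 was itself lower than NS1 by -0.24 ± 0.03 (adjusted p = 4.9e-05). The HMGCS1 difference between hairpins was 0.26 (adjusted p = 0.00016). Against both controls pooled the changes were 0.45 and 0.42, with a difference of 0.03 (adjusted p = 0.78). About 19.9% of the HMGCS1 exon bases lie opposite another annotated exon, and the strand setting of the counting is not given in the sources used here.

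IDI1, which isomerises isopentenyl diphosphate, rose by 0.60 ± 0.03 with EP300 KD2 (218 ± 10.3 CPM against 144 ± 4 CPM in NS2, SD, n = 3 each) and by 0.36 ± 0.03 with EP300 KD1 (199 ± 2.58 CPM against 155 ± 4.54 CPM in NS1), on the log2 scale. MVK, mevalonate kinase, fell by 0.28 ± 0.04 with EP300 KD2 and by 0.41 ± 0.04 with EP300 KD1 (adjusted p = 3.1e-06 and 9.5e-09). The difference for MVK, 0.14 (adjusted p = 0.034), was 0.10 to 0.14 with adjusted p between 0.056 and 0.11 when NS1 replicate 1 or 3, NS2 replicate 2, EP300 KD1 replicate 1 or EP300 KD2 replicate 2 was left out. With both controls pooled it was 0.05 (adjusted p = 0.40). PMVK, phosphomevalonate kinase, had 27.2, 27.5 and 26.5 CPM in EP300 KD2 against 29.7, 28.2 and 27.4 CPM in NS2, which overlap. It had 30, 28.4 and 29.3 CPM in EP300 KD1 against 33.6, 31.6 and 34.3 CPM in NS1, which do not. Its log2 changes were -0.07 ± 0.04 (adjusted p = 0.18) and -0.19 ± 0.04 (adjusted p = 0.00058), which did not pass the test of their difference (0.12, adjusted p = 0.11). The PMVK level in NS2 was lower than in NS1 by -0.23 ± 0.04 (adjusted p = 0.0004). With both controls pooled the PMVK changes became -0.19 (adjusted p = 0.025) and -0.08 (adjusted p = 0.32).

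The remaining enzymes of that stretch moved little. FDPS, farnesyl diphosphate synthase, rose by 0.17 with EP300 KD2 (adjusted p = 3.3e-05) and differed by 0.05 with EP300 KD1 (adjusted p = 0.097). The EP300 KD1 value passed without NS1 replicate 2 (0.07, adjusted p = 0.049) or EP300 KD1 replicate 3 (0.07, adjusted p = 0.05). Its difference between hairpins of 0.11 (adjusted p = 0.02) was 0.10 and no longer called without EP300 KD2 replicate 1 or 3 or EP300 KD1 replicate 1 or 3. About 28.9% of the FDPS exon bases lie opposite exons of RUSC1-AS1. ACAT2, an acetyl-CoA acetyltransferase, was 0.05 higher with EP300 KD2 (adjusted p = 0.22) and rose by 0.15 with EP300 KD1 (adjusted p = 0.00056), with a difference of -0.10 (adjusted p = 0.079). However, 69.6% of the ACAT2 exon bases lie opposite exons of SOD2 and TCP1. MVD, mevalonate diphosphate decarboxylase, had changes of 0.06 (adjusted p = 0.46) and -0.02 (adjusted p = 0.83). Without EP300 KD1 replicate 2, the highest of its group at 101 CPM, the MVD change with EP300 KD1 was -0.13 (adjusted p = 0.02).

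**Figure D3:**
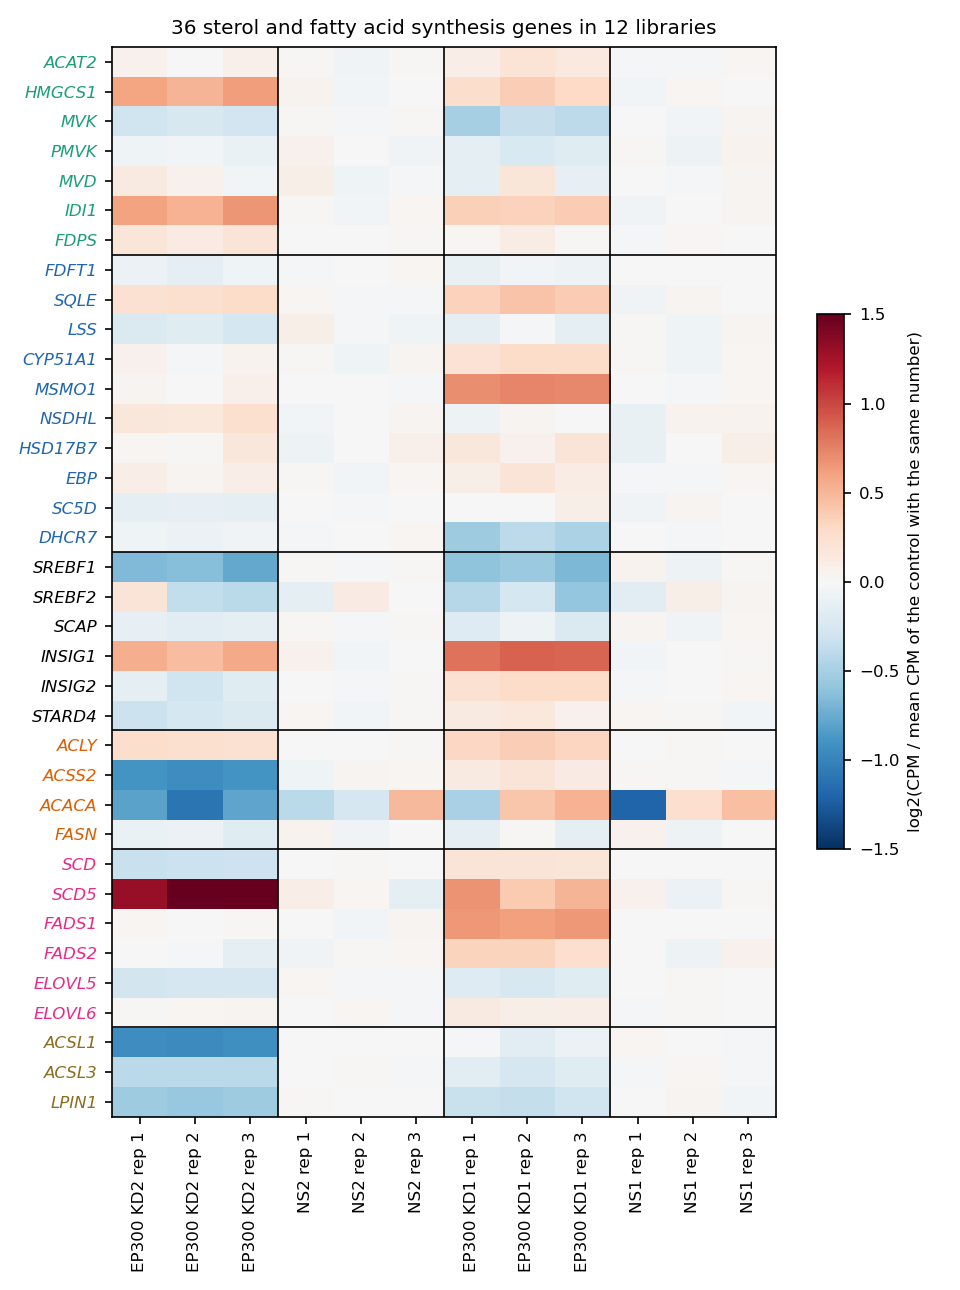
Log2 ratio of each library's CPM to the mean CPM of the control with the same number (colour scale, clipped at 1.5 either way), for 36 genes in pathway order (down the page, label colours and lines mark roles) and 12 libraries (across). Replicates of a line have like colours in most genes, INSIG1 and HMGCS1 are red in both knockdown lines, SREBF1 is blue in both, and ACSS2, SCD and STARD4 change colour between them.

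Of the 10 tested sterol enzymes, SQLE and EBP rose with both hairpins, FDFT1 fell with both, and MSMO1 and DHCR7 passed with EP300 KD1 only. MSMO1, the methylsterol monooxygenase that removes methyl groups from lanosterol derivatives, had 288, 277 and 295 CPM in EP300 KD2 against 280, 281 and 276 CPM in NS2, which overlap. It had 426, 437 and 435 CPM in EP300 KD1 against 262, 258 and 269 CPM in NS1, which lie far apart. The log2 changes were 0.04 ± 0.03 (adjusted p = 0.22) and 0.72 ± 0.03 (adjusted p = 9.6e-15), and they differed by -0.68 ± 0.04 (adjusted p = 1.8e-11). The EP300 KD2 value passed at 0.11 with library totals alone, 0.09 with upper-quartile factors and 0.06 (adjusted p = 0.048) without EP300 KD2 replicate 2.

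DHCR7, the reductase of the last step to cholesterol, averaged 257 ± 3.07 CPM in EP300 KD2 and 268 ± 4.24 CPM in NS2 (SD, n = 3 each), a log2 change of -0.06 ± 0.03 (adjusted p = 0.079). It averaged 193 ± 9.66 CPM in EP300 KD1 and 266 ± 3.7 CPM in NS1, a change of -0.46 ± 0.03 (adjusted p = 7.4e-11). The difference was 0.40 ± 0.04 (adjusted p = 1.8e-07). The EP300 KD2 value was called without EP300 KD1 replicate 2 (-0.06, adjusted p = 0.026). MSMO1 and DHCR7 thus stood at the 2 ends of the tested sterol genes with EP300 KD1.

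SQLE, the squalene epoxidase, rose by 0.25 ± 0.03 with EP300 KD2 (239 ± 4.39 CPM against 201 ± 3.74 CPM in NS2) and by 0.39 ± 0.03 with EP300 KD1 (265 ± 8.83 CPM against 203 ± 6.7 CPM in NS1). FDFT1, squalene synthase, just before SQLE in the pathway, fell by 0.10 ± 0.02 and by 0.08 ± 0.02 on the log2 scale (adjusted p = 0.00086 and 0.0071), but the EP300 KD2 value was -0.03 (adjusted p = 0.22) with library totals alone. CYP51A1, the lanosterol demethylase, was 0.04 higher with EP300 KD2 (adjusted p = 0.38) and rose by 0.26 with EP300 KD1 (adjusted p = 1.1e-06), a difference of -0.22 (adjusted p = 0.00049). EBP, the sterol isomerase, rose by 0.07 with EP300 KD2 (adjusted p = 0.042) and by 0.13 with EP300 KD1 (adjusted p = 0.00071). The EBP call with EP300 KD2 was lost, at 0.06 to 0.08, without EP300 KD2 replicate 1 or 3, NS2 replicate 1 or 2, or NS1 replicate 1.

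NSDHL, LSS and SC5D passed with EP300 KD2 and not with EP300 KD1. NSDHL, a sterol dehydrogenase, rose by 0.19 with EP300 KD2 (adjusted p = 0.001) and differed by -0.02 with EP300 KD1 (adjusted p = 0.77), a difference of 0.20 (adjusted p = 0.0091). NS2 lay under NS1 for NSDHL by -0.14 (adjusted p = 0.024), and with both controls pooled its EP300 KD2 change was 0.12 (adjusted p = 0.061) and the difference 0.07 (adjusted p = 0.36). LSS, lanosterol synthase, fell by 0.22 (adjusted p = 0.0022) and SC5D, a sterol desaturase, fell by 0.14 (adjusted p = 0.00072) with EP300 KD2. With EP300 KD1 their changes were -0.09 and 0.04 (adjusted p = 0.14 and 0.31). The difference passed for SC5D (-0.17, adjusted p = 0.0022) and not for LSS (-0.13, adjusted p = 0.19). The SC5D change with EP300 KD2 was -0.07 (adjusted p = 0.06) with library totals alone. HSD17B7, the sterol ketoreductase, whose reads a close pseudogene copy could share, had changes of 0.07 (adjusted p = 0.40) and 0.14 (adjusted p = 0.076). The EP300 KD1 value passed without NS1 replicate 3 (0.20, adjusted p = 0.025) or EP300 KD1 replicate 2 (0.18, adjusted p = 0.049).

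Of the enzymes that supply and use acetyl-CoA, ACLY rose with both hairpins and ACSS2 went opposite ways. ACSS2, which makes acetyl-CoA from acetate in the cytosol and nucleus, had 167, 164 and 167 CPM in EP300 KD2 against 299, 320 and 318 CPM in NS2, and 259, 268 and 256 CPM in EP300 KD1 against 238, 237 and 230 CPM in NS1. No libraries overlapped in either pair, and the log2 changes were -0.91 ± 0.03 (adjusted p = 1.9e-15) and 0.15 ± 0.03 (adjusted p = 0.00011), a difference of -1.06 ± 0.04 (adjusted p = 1.5e-13). The controls differed too, NS2 being above NS1 by 0.41 ± 0.03 (adjusted p = 3.5e-09), and EP300 KD1 lay between them. Against both controls pooled the EP300 KD2 change was -0.72 (adjusted p = 3e-05) and the EP300 KD1 change turned to -0.07 (adjusted p = 0.57), so the rise of ACSS2 with EP300 KD1 rests on the choice of NS1.

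ACLY, which makes cytosolic acetyl-CoA from citrate, rose with both hairpins. It averaged 776 ± 8.37 CPM in EP300 KD2 and 656 ± 5.32 CPM in NS2, and 814 ± 16.6 CPM in EP300 KD1 and 645 ± 5.96 CPM in NS1 (SD, n = 3 each), with log2 changes of 0.24 ± 0.02 and 0.34 ± 0.02 (adjusted p = 7.4e-09 and 4.6e-11). With EP300 KD2, then, the ACLY transcript rose and the ACSS2 transcript fell.

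FASN, fatty acid synthase, had small changes. It averaged 1438 ± 52.4 CPM in EP300 KD2 against 1566 ± 56.6 CPM in NS2, a log2 change of -0.12 ± 0.04 (adjusted p = 0.014). It averaged 1494 ± 94.3 CPM in EP300 KD1 against 1579 ± 75.2 CPM in NS1, a change of -0.08 ± 0.04 (adjusted p = 0.09). The EP300 KD2 call was lost under DESeq2 (adjusted p = 0.086), with library totals alone (-0.05, adjusted p = 0.28), and without EP300 KD2 replicate 3 (-0.09, adjusted p = 0.094) or NS2 replicate 1 (-0.10, adjusted p = 0.085). The EP300 KD1 value passed without EP300 KD1 replicate 2 (-0.13, adjusted p = 0.0031) or NS1 replicate 2 (-0.11, adjusted p = 0.027).

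ACACA, acetyl-CoA carboxylase, spread too widely between libraries for a firm value. Its SEs were larger than those of SCD5, which held fewer counts (1828 against 2555 over the 12 libraries). It had 3.78, 3.08 and 3.8 CPM in EP300 KD2 against 4.96, 5.54 and 9.25 CPM in NS2, and 4.65, 8.66 and 9.29 CPM in EP300 KD1 against 2.83, 7.75 and 8.89 CPM in NS1. The EP300 KD2 libraries were lower than those of NS2 without overlap, while the NS1 libraries alone spanned 2.83 to 8.89 CPM. The log2 changes were -0.89 ± 0.32 (adjusted p = 0.025) and 0.21 ± 0.30 (adjusted p = 0.56), and their difference was -1.10 ± 0.44 (adjusted p = 0.046). The EP300 KD2 call was lost under DESeq2 (adjusted p = 0.092) and limma-voom (adjusted p = 0.063), without NS2 replicate 3 (-0.56, adjusted p = 0.18) and without EP300 KD2 replicate 2 (-0.80, adjusted p = 0.08). The EP300 KD1 value was -0.14 without NS1 replicate 1. The difference was no longer called without NS1 replicate 1 (-0.75), NS2 replicate 3 (-0.77), EP300 KD1 replicate 2 (-0.99) or 3 (-0.92). The same held without EP300 KD2 replicate 1 (-1.15), replicate 2 (adjusted p = 0.094) or replicate 3 (-1.14).

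**Figure D4:**
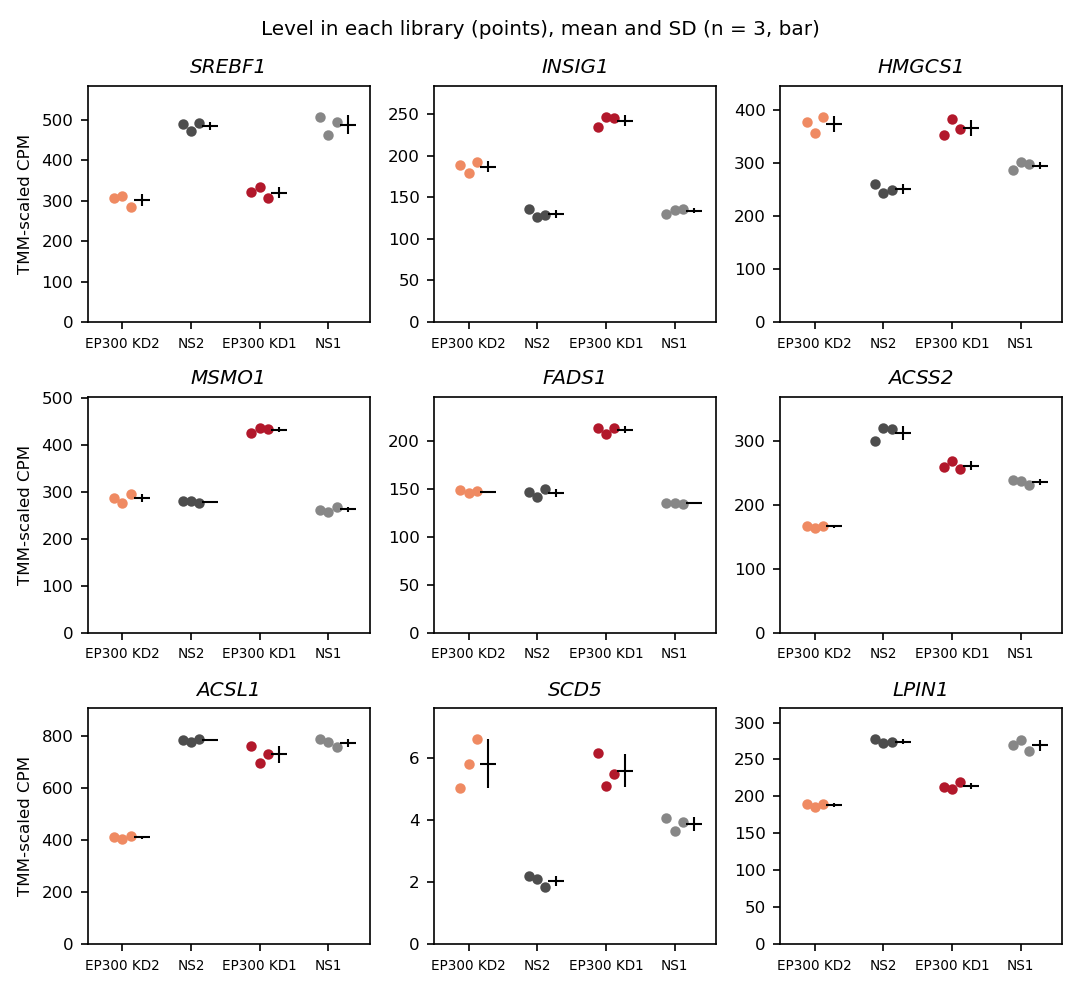
TMM-scaled CPM (vertical axes, from 0) of 9 genes in each library (points) of EP300 KD2, NS2, EP300 KD1 and NS1, with the mean and SD of 3 libraries as bars. SREBF1 and LPIN1 lie lower in both knockdown lines, INSIG1 and HMGCS1 higher in both, MSMO1 and FADS1 are highest in EP300 KD1, ACSL1 is lowest in EP300 KD2, and the SCD5 knockdown levels are alike over unequal controls.

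Of the 6 desaturases and elongases, 1 was higher and 2 lower with EP300 KD2 (16.7% and 33.3%, against 27.9% and 29.9% of all genes tested). With EP300 KD1, 5 were higher and 1 lower (83.3% and 16.7%, against 32.6% and 32.3% of all genes). SCD, the main stearoyl-CoA desaturase, averaged 2289 ± 16.4 CPM in EP300 KD2 and 2869 ± 26.7 CPM in NS2, and 3060 ± 12.2 CPM in EP300 KD1 and 2682 ± 18.6 CPM in NS1 (SD, n = 3 each). It fell by 0.33 ± 0.02 with EP300 KD2 (adjusted p = 3.3e-12) and rose by 0.19 ± 0.02 with EP300 KD1 (adjusted p = 7.7e-09), a difference of -0.52 ± 0.02 (adjusted p = 2.2e-12). NS2 lay above NS1 by 0.10 ± 0.02, and against both controls pooled the SCD changes kept their signs, at -0.28 and 0.14.

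SCD5, another stearoyl-CoA desaturase of much lower level, had 5.02, 5.8 and 6.61 CPM in EP300 KD2 against 2.18, 2.08 and 1.84 CPM in NS2, and 6.16, 5.1 and 5.49 CPM in EP300 KD1 against 4.06, 3.63 and 3.93 CPM in NS1. Every knockdown library lay above every control library. The log2 changes were 1.51 ± 0.12 (adjusted p = 3e-09) and 0.52 ± 0.11 (adjusted p = 0.00043), and they differed by 0.98 ± 0.17 (adjusted p = 6.7e-05). That difference followed the controls, since NS2 lay under NS1 by -0.93 ± 0.13 (adjusted p = 2e-05), while the knockdown lines averaged 5.81 ± 0.793 and 5.58 ± 0.536 CPM. Against both controls pooled SCD5 rose by 0.96 and 0.91 and the difference was 0.05 (adjusted p = 0.87).

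FADS1, the delta-5 desaturase of polyunsaturated fatty acids, had 149, 146 and 148 CPM in EP300 KD2 against 147, 142 and 150 CPM in NS2, which overlap. It had 214, 208 and 214 CPM in EP300 KD1 against 136, 136 and 135 CPM in NS1, which lie far apart. The log2 changes were 0.01 ± 0.03 (adjusted p = 0.71) and 0.64 ± 0.03 (adjusted p = 4.4e-14), a difference of -0.63 ± 0.04 (adjusted p = 4.8e-11). The EP300 KD2 value was 0.08 (adjusted p = 0.011) with library totals alone. FADS2, the delta-6 desaturase, which lies beside FADS1 on chromosome 11, had a change of -0.05 with EP300 KD2 (adjusted p = 0.34) and rose by 0.30 ± 0.05 with EP300 KD1 (adjusted p = 9.6e-06), a difference of -0.35 ± 0.06. Its EP300 KD2 change was 0.02 with library totals alone. Among elongases, ELOVL5, which lengthens polyunsaturated chains, fell by 0.26 with EP300 KD2 and by 0.21 with EP300 KD1 on the log2 scale. ELOVL6, which lengthens palmitate, was 0.03 higher with EP300 KD2 (adjusted p = 0.38) and rose by 0.11 with EP300 KD1 (adjusted p = 0.00093), a difference of -0.08 (adjusted p = 0.065).

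The 3 genes of acyl-CoA and lipid assembly fell with both hairpins, and each had a more negative change with EP300 KD2 by the test of the difference. Over all genes tested, 29.9% fell with EP300 KD2, 32.3% with EP300 KD1 and 17.3% with both, and 29.2% had a negative difference. ACSL1, a long-chain acyl-CoA synthetase, had 410, 405 and 416 CPM in EP300 KD2 against 785, 779 and 790 CPM in NS2, and 762, 697 and 732 CPM in EP300 KD1 against 789, 777 and 759 CPM in NS1. The EP300 KD2 and NS2 libraries lay far apart, with a log2 change of -0.94 ± 0.03 (adjusted p = 7.3e-16). With EP300 KD1, 1 library lay above the lowest NS1 library, and the change of -0.09 ± 0.03 (adjusted p = 0.0096) was -0.05 (adjusted p = 0.067) without EP300 KD1 replicate 2. The difference was -0.85 ± 0.04 (adjusted p = 1.8e-12).

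ACSL3, an acyl-CoA synthetase of the endoplasmic reticulum and lipid droplets, averaged 282 ± 0.454 CPM in EP300 KD2 and 373 ± 7.2 CPM in NS2, and 287 ± 9.24 CPM in EP300 KD1 and 330 ± 6.17 CPM in NS1. Its log2 changes were -0.41 ± 0.03 and -0.20 ± 0.03, and NS2 lay above NS1 by 0.18 ± 0.03. Against both controls pooled the changes were -0.32 and -0.29, with a difference of -0.03 (adjusted p = 0.70). LPIN1, a phosphatidate phosphatase that feeds triglyceride synthesis, averaged 188 ± 2.94 CPM in EP300 KD2 and 274 ± 3.05 CPM in NS2, and 214 ± 4.39 CPM in EP300 KD1 and 269 ± 7.54 CPM in NS1. It fell by 0.54 ± 0.03 (adjusted p = 1.1e-12) and by 0.33 ± 0.03 (adjusted p = 1.4e-09), and the difference of -0.21 ± 0.04 (adjusted p = 7.2e-05) stayed at -0.18 (adjusted p = 0.00012) with both controls pooled.

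Levels compared per kilobase of transcript, averaged over the 12 libraries, placed SCD first at 508 CPM per kb, with FDFT1 at 414, FDPS at 363, FASN at 177, ACSL1 at 176, ACLY at 167 and MSMO1 at 139 CPM per kb. Among the regulators SREBF1 stood at 95.4 CPM per kb, SCAP at 21.4 and INSIG2 at 6.9, and no transcript length was matched for INSIG1 or ACSL3. SCD5 at 1.39 and ACACA at 0.632 CPM per kb were the lowest of the singly listed tested genes with a length. ACACA makes the malonyl-CoA that FASN uses, and its level per kilobase was far under that of FASN. The ACACA level rests on 2555 counts over the 12 libraries, and its NS1 libraries alone spanned 2.83 to 8.89 CPM. Whether the counting left out ACACA reads was not tested.

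Genes around the 37 were counted in 6 lists of the same metabolism, where some genes of several accessions, such as TKT and FBXW7, may hold only part of their counts. With EP300 KD2, 12 of 15 tested genes of sterol transport, efflux and storage fell (80.0%, against 29.9% of all genes tested; median -0.19). With EP300 KD1, 6 fell and 3 rose (40.0% and 20.0%, against 32.3% and 32.6% of all genes; median -0.03). ABCG1, a sterol exporter induced by liver X receptors, averaged 1.59 ± 0.192 CPM in EP300 KD2 and 13.7 ± 0.658 CPM in NS2, and 5.29 ± 0.684 CPM in EP300 KD1 and 24.3 ± 1.64 CPM in NS1 (SD, n = 3 each), with log2 changes of -3.12 ± 0.11 (adjusted p = 6.9e-15) and -2.20 ± 0.09 (adjusted p = 4e-14). ABCA1 and MYLIP, also known targets of those receptors and named here after their values were seen, fell by 1.45 and 0.35 with EP300 KD2 and by 0.58 and 0.73 with EP300 KD1. ABCA1 averaged 6.37 ± 0.9 CPM in EP300 KD1, under NS1 (9.52 ± 0.541 CPM) but not under NS2 (5.96 ± 0.286 CPM). NS2 itself lay under NS1 for ABCA1, by -0.68 ± 0.1 (adjusted p = 4.4e-05). The fall of ABCA1 with EP300 KD1 thus rests on the choice of NS1. VLDLR, a lipoprotein receptor, fell by 1.51 with EP300 KD2 (adjusted p = 4e-12) and had a change of -0.01 with EP300 KD1 (adjusted p = 0.90). OSBP, an oxysterol-binding carrier, fell by 0.13 with EP300 KD2 and rose by 0.35 with EP300 KD1. However, NS2 lay above NS1 for OSBP by 0.26 ± 0.02 (adjusted p = 2.1e-07). The EP300 KD2 level, 152 ± 1.62 CPM, lay between NS1 (139 ± 1.09 CPM) and NS2 (166 ± 3.14 CPM). The fall of OSBP with EP300 KD2 thus rests on the choice of NS2.

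Of 10 genes that process and sense SREBP, 3 were higher and 5 lower with EP300 KD2 (30.0% and 50.0%, against 27.9% and 29.9% of all genes tested; median -0.08). With EP300 KD1, 7 were higher and 2 lower (70.0% and 20.0%, against 32.6% and 32.3% of all genes; median 0.13). With library totals alone, 3 were lower with EP300 KD2. TMEM97, a sterol-regulated membrane protein, rose by 0.19 ± 0.03 with EP300 KD2 and fell by 0.40 ± 0.03 with EP300 KD1. SPRING1, which is needed for SREBP cleavage, rose by 0.15 with EP300 KD2 and by 0.29 with EP300 KD1. VCP, an ATPase that extracts ubiquitinated proteins from the membrane, rose by 0.17 with EP300 KD2 and by 0.13 with EP300 KD1. RNF139, a ubiquitin ligase of the same membrane, fell by 0.25 with EP300 KD2 and rose by 0.26 with EP300 KD1. The RNF139 controls differed as much, NS2 being above NS1 by 0.25 ± 0.04 (adjusted p = 5.7e-05). It averaged 41.2 CPM in both EP300 KD2 and NS1, 49.5 CPM in EP300 KD1 and 49.2 CPM in NS2. The opposite directions of RNF139 thus rest on the pairing of controls by number.

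Among 10 other sterol and isoprenoid genes, 2 rose and 5 fell with each hairpin (medians -0.15 with EP300 KD2 and -0.06 with EP300 KD1). That is 20.0% and 50.0%, against 27.9% and 29.9% of all genes tested with EP300 KD2 and 32.6% and 32.3% with EP300 KD1. Of these 10 genes, 3 fell with EP300 KD2 under library totals alone. NUS1, a subunit of the enzyme that makes dolichol precursors, rose by 0.13 ± 0.03 with EP300 KD2 and by 0.21 ± 0.03 with EP300 KD1. For NUS1, NS2 lay above NS1 by 0.18 ± 0.03 (adjusted p = 0.00033). Its EP300 KD1 level, 68.3 ± 1.28 CPM, was close to NS2 (66.7 ± 1.14 CPM) and above NS1 (59 ± 1.83 CPM). PDSS2, a subunit of the enzyme that makes the coenzyme Q side chain, fell by 0.35 ± 0.04 with EP300 KD2 and by 0.12 ± 0.04 with EP300 KD1. Both were named after their values were seen.

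Of 20 tested genes of the wider fatty acid and glycerolipid pathways, 5 were higher and 8 lower with EP300 KD2 (25.0% and 40.0%, against 27.9% and 29.9% of all genes tested; median -0.12). With EP300 KD1, 11 were higher and 5 lower (55.0% and 25.0%, against 32.6% and 32.3% of all genes; median 0.19). With both controls pooled, 5 were lower with EP300 KD2. GPAM, the mitochondrial acyltransferase that opens triglyceride synthesis, rose by 0.63 ± 0.04 with EP300 KD2 (57 ± 2.13 CPM against 36.8 ± 0.451 CPM in NS2) and by 1.24 ± 0.04 with EP300 KD1 (77.2 ± 1.8 CPM against 32.6 ± 1.13 CPM in NS1), in contrast to LPIN1, which acts further on. ACSL4, an arachidonate-preferring acyl-CoA synthetase, fell by 0.21 with EP300 KD2 and rose by 0.82 with EP300 KD1. ACSL5 fell by 1.17 with EP300 KD2 and by 0.55 with EP300 KD1. HACD3, a dehydratase of chain elongation, rose by 0.52 with EP300 KD2 and by 0.30 with EP300 KD1. The acyl-CoA synthetases thus included ACSL1, ACSL3 and ACSL5 lower with both hairpins and ACSL4 in opposite directions.

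Of 15 tested fatty acid oxidation genes, 12 fell with EP300 KD2 (80.0%, against 29.9% of all genes tested; median -0.28). With EP300 KD1, 6 fell and 6 rose (40.0% each, against 32.3% and 32.6% of all genes; median 0.00). ACADM, the medium-chain dehydrogenase, fell by 0.51 ± 0.04 with EP300 KD2 and by 0.69 ± 0.04 with EP300 KD1. HADH, a later enzyme of the cycle, fell by 0.32 with EP300 KD2 and by 0.39 with EP300 KD1. PPARA, a receptor that induces oxidation genes, fell by 0.61 with EP300 KD2 and rose by 0.38 with EP300 KD1, and PPARD, a related receptor, fell by 0.49 with EP300 KD2 and by 0.27 with EP300 KD1. Of 7 genes that supply NADPH, 6 fell and 1 rose with EP300 KD2 (85.7% and 14.3%, against 29.9% and 27.9% of all genes tested; median -0.18). With EP300 KD1, 5 fell and 1 rose (71.4% and 14.3%, against 32.3% and 32.6%; median -0.20). IDH1, the cytosolic isocitrate dehydrogenase, fell by 0.78 ± 0.03 with EP300 KD2 and by 0.72 ± 0.02 with EP300 KD1. MTHFD1, a folate enzyme, rose by 0.16 with EP300 KD2 and fell by 0.33 with EP300 KD1. ME1, malic enzyme, fell by 0.29 with EP300 KD2 and had a change of -0.02 with EP300 KD1 (adjusted p = 0.51).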

How the data were processed

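The deposited table holds the authors' raw counts per RefSeq accession for 12 libraries. HISAT2 2.1.0, featureCounts and hg38 are named in the submitters' processing notes. How strand and multi-mapping reads were treated, and which annotation release was used, is not stated in those notes. Symbols came from RefSeq for 28134 accessions and from GENCODE for 502, and 458 had none (0.307% of counts). A gene with several accessions was read by its larger one. Library totals were 31396653 to 45606950 counts. edgeR 4.0.16 (R 4.3.3) was used with its default filter on low counts, trimmed mean of M-values scaling and the quasi-likelihood test over all 4 groups. A call is an adjusted p under 0.05 over the 13424 genes tested, and errors of log2 changes are SEs from the test statistic. The 37 genes and all lists were chosen with earlier results of these data known. Levels per library are given for SREBF1, SREBF2, SCAP, INSIG1 and INSIG2 and for the 4 called genes of the largest change in each comparison with a mean of at least 1 CPM. From each list the 2 genes of the smallest p per knockdown were named. Some genes that this rule picks are not reported here. Alternatives were other scalings, no filter, DESeq2 1.42.0, limma-voom 3.58.1, pooled controls, a replicate block, fewer libraries and each library left out. Same-numbered knockdown and control libraries did not deviate together (r between -0.0396 and 0.0222), so replicates were not paired. The fitting script was tested on simulated data.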

Additional observations from a re-analysis of the deposited data

Results flagged for a closer look

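For 6 genes the change with EP300 KD2 differed from that with EP300 KD1 by at least 1.5-fold, by the test of the difference itself. The log2 difference (EP300 KD2 change minus EP300 KD1 change) was -1.06 ± 0.04 for ACSS2, -1.10 ± 0.44 for ACACA, -0.85 ± 0.04 for ACSL1, -0.68 ± 0.04 for MSMO1, -0.63 ± 0.04 for FADS1 and 0.98 ± 0.17 for SCD5 (SE, edgeR's quasi-likelihood test, adjusted p = 1.5e-13, 0.046, 1.8e-12, 1.8e-11, 4.8e-11 and 6.7e-05). With both controls pooled the differences were -0.65, -1.09, -0.83, -0.59, -0.52 and 0.05 in the same order of genes, the last with an adjusted p of 0.87. In ACACA the libraries of a group spread widely and the call was lost without any of several libraries, for example -0.77 (adjusted p = 0.17) without NS2 replicate 3.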

How the results depend on the processing

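Of 2338 recomputed gene values, 2204 kept their direction and side of the threshold, 85 lost the call, 33 gained it and 16 changed sign, and the cause was not tested. The number higher with EP300 KD2 was 14 in place of 9 with upper-quartile factors, with library totals alone and with no filter, and the number higher with both hairpins was then 13, 12 and 11 in place of 7. With both controls pooled, 3 genes in place of 7 had a positive difference between hairpins. With each library left out in turn, 4 to 8 genes were lower in NS2 against NS1, in place of 7. The sign changed for PMVK (0.00094), DHCR7 (0.01) and FADS2 (0.02) with EP300 KD2 under library totals alone, for FADS2 with EP300 KD2 (0.01), ACSS2 (-0.07) and NSDHL (0.05) with EP300 KD1 under pooled controls, for MVD (0.0029) and NSDHL (0.0046) with EP300 KD1 under upper-quartile factors, and with a library left out for MVD (-0.13 to 0.04), NSDHL (-0.07 to 0.02) and ACACA (-0.14 to 0.53) with EP300 KD1 and for FADS1 (-0.0032 to 0.03) with EP300 KD2. Of these only ACSS2 with EP300 KD1 had been called. A replicate block changed 2 calls, HSD17B7 with EP300 KD1 (0.15, edgeR adjusted p = 0.043) and FADS2 in NS2 against NS1 (0.13, adjusted p = 0.052), and the numbers do not pair the libraries. SREBF2, TM7SF2 and other genes of several accessions were read by 1 of them and may hold only part of their counts, which was not tested. ACACA, a gene of low level, is limited by its wide spread between libraries, the cause of which was not tested.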
